A study of Mus musculus with 6 samples.

Results

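SR proteins and heterogeneous nuclear ribonucleoproteins (hnRNPs) are families of RNA-binding proteins that choose splice sites, and the transcripts that encode them were compared between lung group 2 innate lymphoid cells (ILC2s) of WT and SIRPα KO mice. The genes were chosen by name. Every symbol of the gene count table that begins with Srsf and a digit, or with Hnrnp, was taken, and 3 symbols marked -ps were left out. This gave 31 of 17831 genes, of which 11 encode SR proteins and 20 encode hnRNPs. All but Srsf12 passed the filter on low counts, so 30 were tested. Srsf12, a minor SR family member that represses splicing, had 0 reads in WT replicates 1 and 2 and in SIRPα KO replicates 1 and 2, 32 reads in WT replicate 3 and 4 reads in SIRPα KO replicate 3.

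SR proteins carry RNA recognition motifs and a tail of alternating arginine and serine. They bind enhancer sequences in exons and recruit the spliceosome to the splice sites beside them. The hnRNPs coat nascent pre-mRNA, and many of them bind silencer sequences and oppose SR proteins at the same exons. Several members of both families also leave the nucleus with the mRNA and act on its export, stability or translation. In activated lymphocytes this machinery is known for changing the isoforms of surface receptors, of which CD45 is the textbook case.

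Bulk RNAseq was available from 3 WT and 3 SIRPα KO libraries. The WT mice are labelled CB57BL/6, and the KO mice SIRPalphatm1Ynliu/J, a strain label that does not limit the knockout to ILC2s. Mice of both groups were 6 to 8 weeks old and received 0.5 μg of IL-33 intranasally on 3 days. ILC2s were sorted from the lungs on day 4 and kept in medium with rmIL-7 and rmIL-2, each at 10 ng/mL, for 18 h by one passage of the paper and 24 h by another. Each library was made from 10 pg of RNA by whole-transcript amplification. The series text speaks of duplicates, while the labels give 3 libraries a group, with the codes 37, 37V1 and 38 for WT replicates 1, 2 and 3 and the codes 43, 44 and 44V1 for SIRPα KO replicates 1, 2 and 3. What V1 stands for is not stated. Libraries of one code may therefore come from one sample, and p-values measure the spread between these libraries, which may in part be technical.

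Between 13980499 and 19051507 reads were counted on genes per library. The edgeR variation between replicates was 38.1% in WT and 15.2% in SIRPα KO, and 27.9% in WT without replicate 3, which leaves the codes 37 and 37V1. Reads on Sirpa itself numbered 149, 96 and 73 in WT against 48, 85 and 28 in SIRPα KO (log2 fold change -1.12, SE 0.42, adjusted p = 0.115 by edgeR's quasi-likelihood test). Sirpa reads were thus present in the SIRPα KO libraries too, and which part of the gene the allele alters is not given in the sources used here. Of 15 ILC2 markers all 15 were in the table, and their summed level was 15535 to 16766 CPM, which are reads scaled to a common library size, in WT and 21476 to 22021 CPM in SIRPα KO. Most of that sum was Il5, and the markers did not move as one: 7 of the 15 were higher in SIRPα KO without overlap, 5 were lower without overlap (Thy1, Id2, Icos, Klrg1 and Arg1) and 3 overlapped. Over all 13623 genes tested, the groups did not overlap for 42.8%, with 21.6% higher and 21.2% lower. Of 7 T cell markers 6 were in the table, at a summed 205 to 272 CPM in WT and 123 to 132 CPM in SIRPα KO. Trbc2 made up most of this sum in every library. Cd3g had 326, 230 and 320 reads in WT and 57, 60 and 56 in SIRPα KO. Cd3e was read in every library, and Cd4 only in SIRPα KO replicate 2, with 11 reads. B cell markers, 4 of 5 in the table, summed to 31.6 to 38.5 CPM in WT and 14.0 to 15.8 CPM in SIRPα KO. Macrophage and dendritic cell markers (45.0 to 137 CPM in WT, 83.9 to 128 CPM in SIRPα KO, 7 of 7 in the table) and lung epithelial and endothelial markers (60.6 to 85.9 and 46.8 to 107 CPM, 4 of 5) overlapped between the groups. Granulocyte, mast cell and NK cell markers reached at most 9.87 and 12.2 CPM in sum. The part of these other cells in the values below was not tested. In bulk libraries, fewer cells of a type and less RNA per cell cannot be told apart.

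Per length of transcript, hnRNPs of the K, F and A2/B1 kinds were the most abundant of the 30 genes in WT. Levels between genes are given as CPM per kilobase of the longest annotated transcript, as mean ± SD of the 3 WT libraries. Hnrnpk, whose KH domains bind cytosine-rich RNA and DNA, had 431 ± 64.6 CPM per kilobase. Hnrnpf, which binds runs of guanines, followed at 380.2 ± 29.3 CPM per kilobase, and Hnrnpa2b1, a silencer-binding protein that also sorts RNA for transport, at 332 ± 28.9 CPM per kilobase. The SDs of these neighbours in the order reach or touch each other, so their order is not resolved by 3 libraries. Among SR proteins, Srsf2 led with 253 ± 78.6 CPM per kilobase, Srsf3 had 186 ± 24.2 CPM per kilobase and Srsf7 had 164 ± 14.7 CPM per kilobase, and these 3 could likewise not be ordered. Srsf3, the smallest SR protein, and Srsf7 also act as adaptors in mRNA export. At the low end stood Hnrnpr (5.97 ± 1.13 CPM per kilobase), Hnrnpa0 (6.60 ± 2.86 CPM per kilobase) and Hnrnpul2 (7.33 ± 1.52 CPM per kilobase). The value of Hnrnpr rests on an annotated transcript of 21452 bases, and with the median coding transcript of 2543 bases its level in WT would be 50.4 CPM per kilobase. The median of the 30 genes was 66.8 CPM per kilobase with the longest transcript and 127 CPM per kilobase with the median coding transcript.

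**Figure D1:**
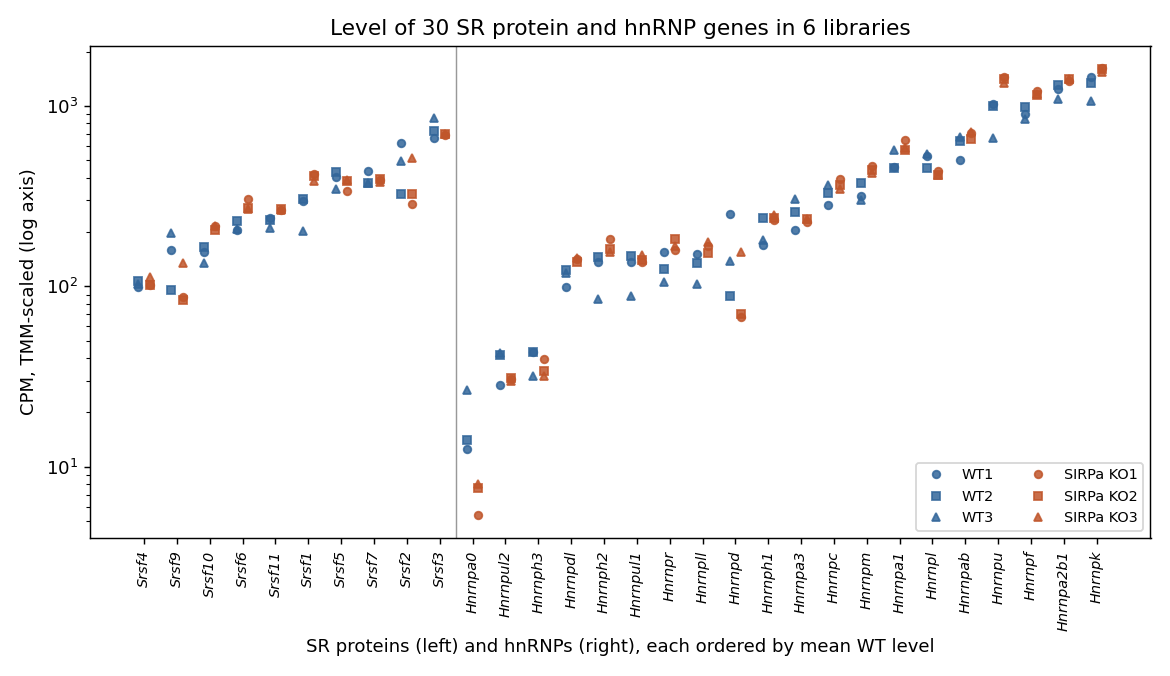
TMM-scaled CPM (log axis) of the 30 tested SR protein and hnRNP genes in each of the 6 libraries, with WT in blue and SIRPα KO in orange and 1 symbol per replicate number. Most genes have 3 closely spaced SIRPα KO values, while Srsf2, Srsf9 and Hnrnpd are spread widely within both groups and Hnrnpa0 is the lowest gene.

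The first comparison asked whether the splicing factor transcripts differ between SIRPα KO and WT ILC2s. Of the 30 genes, 4 (13.3%) passed an adjusted p of 0.05 in edgeR's quasi-likelihood test, 3 of them higher and 1 lower in SIRPα KO. Over all 13623 genes tested, 11.7% passed, with 5.94% higher and 5.81% lower, so that the share among splicing factors was near the background. Before adjustment, 12 of the 30 had a p under 0.05 against 32% of all genes. The 3 libraries of one group lay wholly outside those of the other for 15 of the 30 genes (50%), 13 higher and 2 lower, against 42.8% of all genes (21.6% higher and 21.2% lower). The values below are TMM-scaled CPM, always in the order of replicates 1, 2 and 3.

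Among the SR proteins, 1 of 10 passed the test (10%, against 11.7% of all genes). The median log2 fold change was -0.0018, against -0.025 over all genes. Estimates were positive for 5 and negative for 5. The gene that passed was Srsf10, on chromosome 4 from 135855747 to 135869908 (mm10), whose protein represses splicing when it loses its phosphates. Srsf10 had 154, 165 and 135 CPM in WT and 217, 205 and 217 CPM in SIRPα KO. All SIRPα KO libraries were above all WT libraries, and the fitted difference was 1.41-fold (log2 fold change 0.49, SE 0.12, adjusted p = 0.0358). Srsf1, the founding SR protein that recruits the U1 particle to 5′ splice sites, had 299, 306 and 202 CPM in WT and 421, 409.9 and 384 CPM in SIRPα KO. Its groups did not overlap and WT replicate 3 was the lowest library, but the difference missed the threshold (log2 fold change 0.59, SE 0.16, adjusted p = 0.054). Srsf6, with a pair of RNA recognition motifs, had 204, 229 and 206 CPM in WT and 307, 270.0 and 269 CPM in SIRPα KO, again without overlap and just short of the threshold (log2 fold change 0.40, SE 0.11, adjusted p = 0.0506). Srsf11, a more distant relative, was the fourth gene whose groups did not overlap, with a log2 fold change of 0.23 (adjusted p = 0.165). Groups thus did not overlap for 40% of the SR proteins, against 42.8% of all genes.

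The remaining classical SR proteins overlapped between the groups. Srsf3 had 664, 725 and 854 CPM in WT and 690.0, 695 and 697 CPM in SIRPα KO. The KO libraries fell close together and inside the WT range (log2 fold change -0.11, SE 0.11, adjusted p = 0.531). Srsf4, Srsf5 and Srsf7 had log2 fold changes of 0.02, -0.09 and -0.02, with adjusted p of 0.912, 0.613 and 0.887. The lowest estimates were those of Srsf2 and Srsf9. Srsf2 (SC35), on chromosome 11 from 116849901 to 116853094, is the enhancer-binding SR protein by which nuclear speckles were first recognised. It had 620.2, 323 and 497 CPM in WT and 286, 325 and 514 CPM in SIRPα KO. WT replicate 1 was the highest library and SIRPα KO replicate 1 the lowest, and the other 4 lay between in mixed order, so that no difference was resolved (log2 fold change -0.36, SE 0.28, adjusted p = 0.41). Srsf9, whose arginine-serine tail is short, had 159, 95.2 and 198 CPM in WT and 86.7, 84.4 and 135 CPM in SIRPα KO. Its libraries also interleaved (log2 fold change -0.57, SE 0.29, adjusted p = 0.213).

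Among the hnRNPs, 3 of 20 passed (15%, against 11.7% of all genes), 2 higher and 1 lower, and the median log2 fold change was 0.25. Estimates were positive for 14 and negative for 6. Groups did not overlap for 11 (55%), of which 9 were higher and 2 lower, against 42.8% of all genes (21.6% higher and 21.2% lower). Hnrnpu, on chromosome 1 from 178321108 to 178337797, binds both RNA and chromatin as a scaffold attachment factor. It had 1018, 993 and 660.2 CPM in WT and 1450.2, 1411 and 1345 CPM in SIRPα KO. The SIRPα KO libraries all exceeded the WT libraries, of which replicate 3 was far below the other two (log2 fold change 0.65, SE 0.16, adjusted p = 0.041). Hnrnpf had 902, 988 and 849 CPM in WT and 1203, 1152 and 1170.5 CPM in SIRPα KO, a 1.29-fold rise without overlap (log2 fold change 0.36, SE 0.09, adjusted p = 0.0421). The gene that fell was Hnrnpa0, on chromosome 13 from 58125879 to 58128556, a single-exon gene whose protein binds AU-rich elements of cytokine transcripts. It had 12.5, 14.0 and 26.5 CPM in WT and 5.37, 7.61 and 8.06 CPM in SIRPα KO, so that the groups did not overlap and WT replicate 3 was the highest library (log2 fold change -1.33, SE 0.34, adjusted p = 0.0445). At so low a level counting alone gives a CV of 7.15%.

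The relatives of these genes did not move with them past the threshold. In the F/H family, which binds guanine runs near exons, Hnrnph2 had 136, 146 and 85.4 CPM in WT and 184, 161 and 155 CPM in SIRPα KO. The groups did not overlap and WT replicate 3 again stood lowest (log2 fold change 0.45, SE 0.20, adjusted p = 0.17). Hnrnph1 and Hnrnph3 had log2 fold changes of 0.29 and -0.18, with adjusted p of 0.211 and 0.527. In the U family, Hnrnpul1 had a log2 fold change of 0.19 (adjusted p = 0.515). Hnrnpul2 had 28.5, 41.6 and 42.4 CPM in WT and 30.7, 31.0 and 29.8 CPM in SIRPα KO, with the KO values near the lowest WT library (log2 fold change -0.30, SE 0.19, adjusted p = 0.313). In the A/B family, which binds exonic silencers, Hnrnpa1, Hnrnpa2b1 and Hnrnpab had log2 fold changes of 0.29, 0.21 and 0.20 and Hnrnpa3 one of -0.14, and the lowest adjusted p of these 4 was 0.15.

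Hnrnpm, which binds GU-rich RNA, had 315, 376 and 299 CPM in WT and 464, 443 and 425 CPM in SIRPα KO. Its groups did not overlap and it missed the threshold narrowly (log2 fold change 0.43, SE 0.12, adjusted p = 0.051). Hnrnpk had 1436, 1334 and 1065 CPM in WT and 1615, 1590.5 and 1533 CPM in SIRPα KO (log2 fold change 0.31, adjusted p = 0.126). The SIRPα KO libraries were all higher. Hnrnpll, the factor known to drive skipping of the variable exons of CD45 in activated lymphocytes, had 150.3, 135 and 103 CPM in WT and 167, 153 and 177 CPM in SIRPα KO. These groups were also apart by a narrow margin, between WT replicate 1 and SIRPα KO replicate 2 (log2 fold change 0.35, adjusted p = 0.163). Its paralogue Hnrnpl, which binds CA repeats, was the other gene with every KO library below every WT library, at 526, 452 and 543 CPM in WT and 435, 415 and 414 CPM in SIRPα KO (log2 fold change -0.27, adjusted p = 0.126). Hnrnpr, a relative of Syncrip, and Hnrnpc, which packs nascent RNA at uridine tracts, had log2 fold changes of 0.41 and 0.17 (adjusted p = 0.118 and 0.376). In the D family, which binds AU-rich elements and promotes mRNA decay, Hnrnpdl had 0.31 (adjusted p = 0.129) and Hnrnpd the second lowest estimate of all, -0.71, with an SE of 0.44 (adjusted p = 0.299).

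All 4 calls were lost when any SIRPα KO library was left out, with adjusted p between 0.124 and 0.179, and all 4 when libraries of one code were summed, which leaves 2 against 2 (0.145 to 0.169). Few genes of any kind passed in these fits, 0.112% to 0.12% of all genes without 1 SIRPα KO library and 0.0686% with codes summed. The fold changes stayed about as large, at 0.64 to 0.69 for Hnrnpu, 0.35 to 0.39 for Hnrnpf, 0.48 to 0.52 for Srsf10 and -1.43 to -1.17 for Hnrnpa0 without 1 SIRPα KO library. Without WT replicate 1, Srsf10 and Hnrnpf were lost (adjusted p = 0.0609 and 0.0671), while 7.89% of all genes passed. Without WT replicate 3, all 4 held and Srsf1, Srsf6, Hnrnpa1, Hnrnpk and Hnrnpm passed as well, while 18.4% of all genes passed. That fit leaves WT with the codes 37 and 37V1 only, which may come from one sample, so its spread in WT may be technical. Without WT replicate 2, Srsf1, Srsf6, Hnrnph1 and Hnrnpm passed beside the 4, while 16.3% of all genes passed. DESeq2 called the 4 and also Srsf1, Srsf6 and Hnrnpm, 7 of 30 genes in all, while it called 25.1% of all genes.

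The fold changes moved when a trend in transcript length and GC content was removed from each library. The median of the hnRNPs went from 0.25 to -0.07 and that of the SR proteins from -0.0018 to -0.083. Among the genes that had not passed, 5 hnRNPs turned from a positive to a negative estimate, namely Hnrnpr (0.41 to -0.25), Hnrnpll (0.35 to -0.09), Hnrnph1 (0.29 to -0.17), Hnrnpa2b1 (0.21 to -0.11) and Hnrnpc (0.17 to -0.06), which left 9 hnRNPs positive and 11 negative. Hnrnpu, with a transcript of 7640 bases, went from 0.65 to 0.08 (adjusted p = 0.561) and Srsf10, with 3754 bases, from 0.49 to 0.14 (adjusted p = 0.351). Hnrnpf, with 2401 bases, kept its rise at 0.37 (adjusted p = 0.0291). Hnrnpa0 stayed low at -1.22 but no longer passed (adjusted p = 0.0628). Srsf5, an SR protein with a pair of RNA recognition motifs, passed only with the correction, at -0.42 (adjusted p = 0.0255), where it had 403, 431 and 345 CPM in WT and 336, 382 and 386 CPM in SIRPα KO before it. In all, 2 of 30 passed after the correction, against 8.79% of all genes. Hnrnpf was thus the one gene of the 4 that passed with and without the correction. With upper quartile factors in place of TMM and no correction, it did not pass (log2 fold change 0.27, adjusted p = 0.0948), nor did Srsf10 (adjusted p = 0.0512). Hnrnpu and Hnrnpa0 did (adjusted p = 0.0385 and 0.0390), where 1713 genes passed in all.

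**Figure D2:**
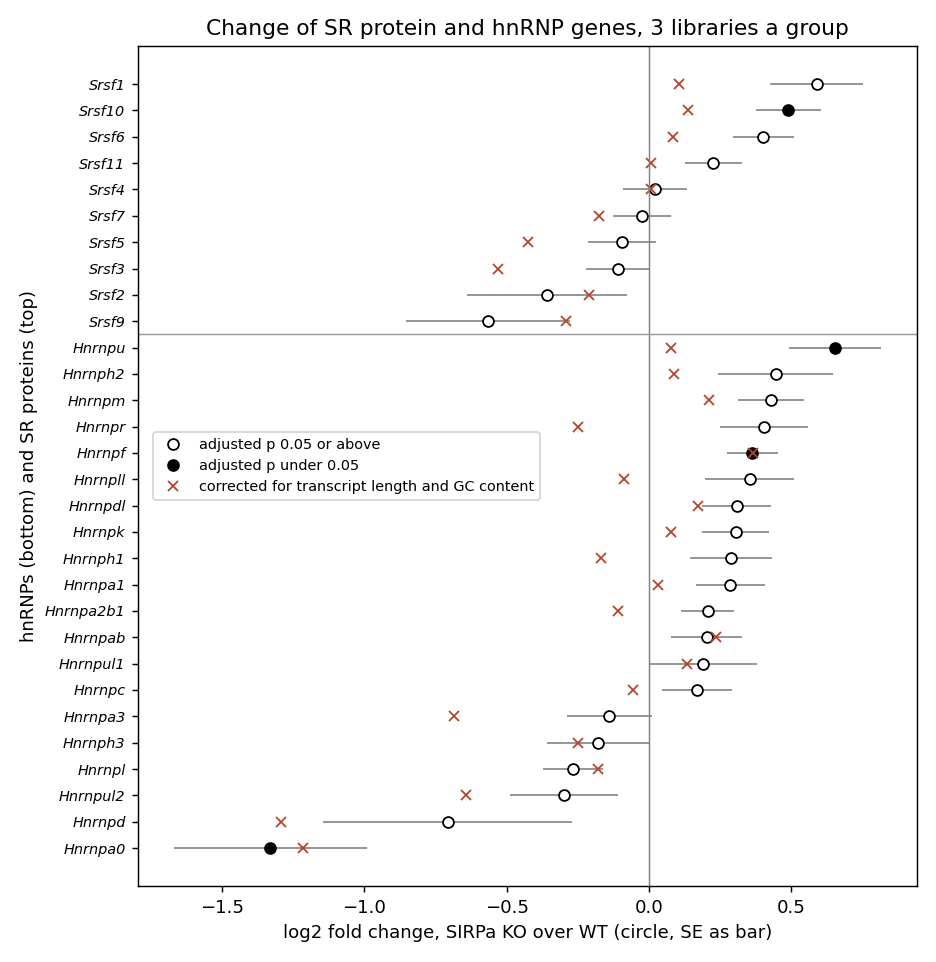
Log2 fold change of the 30 genes, SIRPα KO over WT, as circles with the SE as a bar, filled where the adjusted p of edgeR's test was under 0.05, and as crosses after removal of a trend in transcript length and GC content. The filled circles are Srsf10, Hnrnpu, Hnrnpf and Hnrnpa0. For Hnrnpu the cross lies near 0 and for Hnrnpf it lies on the circle.

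Summed over the family, SR protein transcripts took 3277, 2986 and 3128 CPM in WT and 3099.7, 3130.4 and 3361 CPM in SIRPα KO. The groups overlapped, and the means were 3130.4 ± 146 and 3197 ± 143 CPM (SD, n = 3), a log2 ratio of 0.03. The hnRNP transcripts took 8061, 8216 and 7343 CPM in WT and 9677, 9401 and 9444 CPM in SIRPα KO. Here the groups did not overlap, and the means were 7873 ± 466 and 9507 ± 148 CPM (SD, n = 3), a log2 ratio of 0.27. Most of this difference came from the genes with the most CPM. These were Hnrnpu (mean 890 in WT, 1402 in SIRPα KO), Hnrnpk (1279, 1580), Hnrnpf (913, 1175) and Hnrnpa2b1 (1211.5, 1399), while 6 of the 20 hnRNPs had negative estimates. The sums were not corrected for length and GC content, with which the hnRNP median went from 0.25 to -0.07. With upper quartile factors, under which the median of all genes shifted from -0.025 to -0.13, these ratios were -0.07 and 0.17.

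The second question was how far libraries of one group differ. Spread is given as the coefficient of variation (CV) of CPM over the 3 libraries of a group. The median CV of the 30 genes was 15% in WT and 4.61% in SIRPα KO, against 19.6% and 7.58% for all genes whose log2 CPM averaged 3 or more. For the 500 genes nearest in level to each member, the typical CV was 15.4% (WT) and 4.03% (SIRPα KO), taken as the median over members of their medians, and 15 of the 30 were tighter than their own neighbours in WT and 13 in SIRPα KO. In SIRPα KO the tightest genes were Srsf11 at 0.342% and Srsf3 at 0.505%, both under the counting error of 1.58% and 0.926% that their read numbers imply. Without replicate 3, the median was 7.82% in WT and 2.93% in SIRPα KO. In WT this leaves the codes 37 and 37V1, which may come from one sample.

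Srsf2, Srsf9 and Hnrnpd stood apart in SIRPα KO, with CVs of 32.5%, 27.8% and 51.0%, while the next was Hnrnpa0 at 20.6% and all others were at most 10.9%. Among the 500 genes nearest to each in level, whose median CVs were 3.35%, 5.36% and 5.36%, these CVs were above 99.4%, 98.6% and 99.8%. In WT the highest CVs were those of Hnrnpd (52.6%), Hnrnpa0 (43.4%) and Srsf9 (34.3%), followed by Srsf2 (31.1%). Hnrnpd (AUF1), on chromosome 5 from 99955935 to 99978938, had 252, 88.2 and 138 CPM in WT and 67.8, 70.0 and 155 CPM in SIRPα KO. WT replicate 1 was the highest library and SIRPα KO replicate 3 the second highest, so that the order did not follow genotype. Srsf2 and Srsf9 had the same split, with WT replicates 1 and 3 and SIRPα KO replicate 3 as the 3 high libraries for Srsf2 and, led by WT replicate 3, for Srsf9.

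Libraries that share a code were on opposite sides of this split. Between the libraries coded 37 and 37V1, the ratio of WT replicate 1 to WT replicate 2 was 1.92 for Srsf2, 1.67 for Srsf9 and 2.85 for Hnrnpd. Between 44V1 and 44, the ratio of SIRPα KO replicate 3 to replicate 2 was 1.58, 1.6 and 2.22. For the 26 genes other than these and Hnrnpa0, a library's level over the mean of the 6 libraries ran from 0.772 to 1.16 in WT replicate 1 and from 0.825 to 1.22 in WT replicate 2. Of the 9125 genes whose log2 CPM averaged 3 or more, 192 (2.1%) had both ratios at 1.5 or above, and 3 of them were Srsf2, Srsf9 and Hnrnpd.

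**Figure D3:**
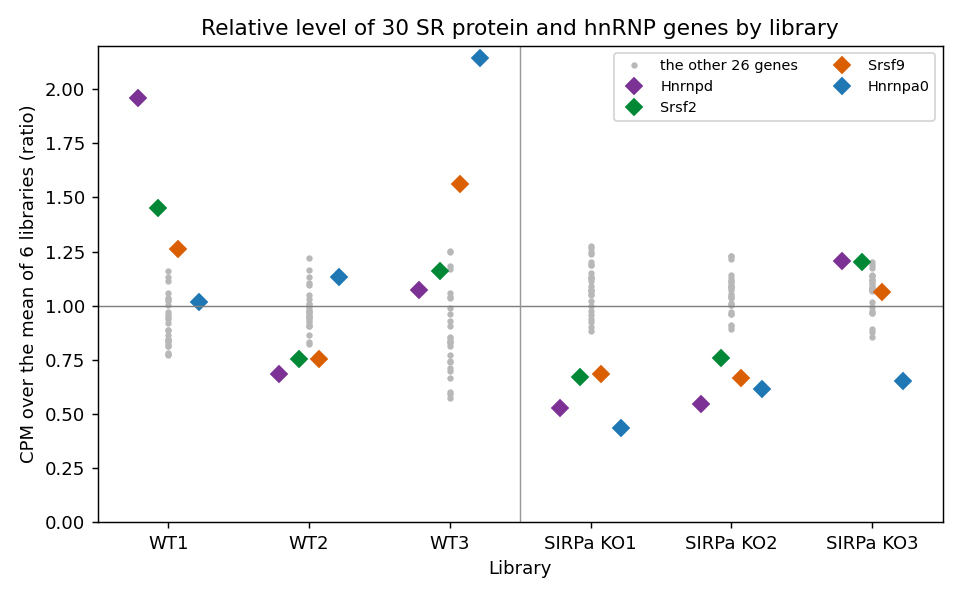
CPM of each of the 30 genes divided by its mean over the 6 libraries, by library, with Hnrnpd, Srsf2, Srsf9 and Hnrnpa0 as coloured diamonds set side by side and the other 26 genes as grey points. Hnrnpd, Srsf2 and Srsf9 are above 1 in WT replicates 1 and 3 and SIRPα KO replicate 3 and at most 0.760 in the other libraries, while Hnrnpa0 is at most 0.653 in the SIRPα KO libraries.

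Hnrnpa0, Srsf9, Hnrnpd and Srsf2 each hold a stretch of very high GC content, a property that was looked for after their CVs were seen. The part of this stretch in their spread was not tested. For each gene the 200 bases of its main coding transcript with the highest share of G and C were found, in GENCODE M21 on mm10. That share was 85.5% for Hnrnpa0, 82% for Srsf9, 81.5% for Hnrnpd and 80% for Srsf2, the 4 highest of the 31 genes. Hnrnpab followed at 79%, then Srsf12 and Hnrnpdl at 78%, and the lowest was Hnrnpc at 53%. The GC content of the whole transcript was 55.4% for Hnrnpa0, the highest of the 31, but 48.9% for Srsf9, 41.7% for Hnrnpd and 50% for Srsf2, where others of the 31 also lay. The window lay in the 5′ UTR for Hnrnpa0, across the start of the coding sequence for Srsf9 and Hnrnpd, and within the coding sequence for Srsf2. The same 4 genes had the 4 highest CVs in both groups and the 4 lowest log2 fold changes. Hnrnpa0, however, is the lowest of the tested genes in level. Among the 500 genes nearest to it in level, the median CVs were 27.0% in WT and 14.85% in SIRPα KO. Its own CVs were above 81.4% of these genes in WT and 72.4% in SIRPα KO. It also lacked the split between libraries of one code, with ratios of 0.895 (37 over 37V1) and 1.06 (44V1 over 44).

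To show what these stretches look like, the 120 coding bases richest in G and C are printed for the 4 genes and, for contrast, for 1 gene of each family with a steady level in SIRPα KO and no such stretch. Sequences are the coding strand, 5′ to 3′, from GENCODE M21 (mm10), with runs of at least 6 G or C in capitals.
Hnrnpa0: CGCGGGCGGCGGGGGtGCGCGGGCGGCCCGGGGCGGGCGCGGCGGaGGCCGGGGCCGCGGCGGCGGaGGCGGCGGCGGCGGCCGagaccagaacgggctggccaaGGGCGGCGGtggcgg
Hnrnpd: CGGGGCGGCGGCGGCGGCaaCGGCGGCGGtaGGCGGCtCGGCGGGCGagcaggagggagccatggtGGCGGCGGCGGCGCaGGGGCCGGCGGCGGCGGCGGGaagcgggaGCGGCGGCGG
Srsf2: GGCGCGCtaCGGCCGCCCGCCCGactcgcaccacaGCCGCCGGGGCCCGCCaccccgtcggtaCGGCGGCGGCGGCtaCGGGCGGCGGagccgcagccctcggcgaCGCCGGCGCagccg
Srsf9: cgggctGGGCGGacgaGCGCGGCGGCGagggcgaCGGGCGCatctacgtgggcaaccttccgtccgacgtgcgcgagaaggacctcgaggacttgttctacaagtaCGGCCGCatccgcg
Hnrnpa3: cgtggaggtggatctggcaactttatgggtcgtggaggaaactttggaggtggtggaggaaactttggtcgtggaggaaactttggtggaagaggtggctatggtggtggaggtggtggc
Srsf3: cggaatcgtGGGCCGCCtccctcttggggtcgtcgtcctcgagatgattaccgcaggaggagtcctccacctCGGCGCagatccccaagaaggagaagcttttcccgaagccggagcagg

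The Hnrnpa0 stretch lies at chr13:58127655-58127774 on the minus strand in its only exon, the Hnrnpd stretch at chr5:99978479-99978598 on the minus strand in exon 1, and the Srsf9 stretch at chr5:115327316-115327435 on the plus strand in exon 1. That of Srsf2 spans the junction of exons 1 and 2 at chr11:116852308-116852663 on the minus strand, that of Hnrnpa3 the junction of exons 6 and 7 at chr2:75662663-75662870 on the plus strand, and that of Srsf3 exons 3 to 5 at chr17:29038545-29041207 on the plus strand. All are coding in the transcripts used. GC made up 90% of the 120 bases in Hnrnpa0, 86.7% in Hnrnpd, 85% in Srsf2 and 70% in Srsf9, where the richer part is upstream of the start codon, against 63.3% in Srsf3 and 55% in Hnrnpa3. The capitals cover 90, 87, 69 and 31 bases in Hnrnpa0, Hnrnpd, Srsf2 and Srsf9, 14 bases in Srsf3 and 0 in Hnrnpa3. In SIRPα KO, Hnrnpa3 had a CV of 2.40% and Srsf3 one of 0.505%.

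**Figure D4:**
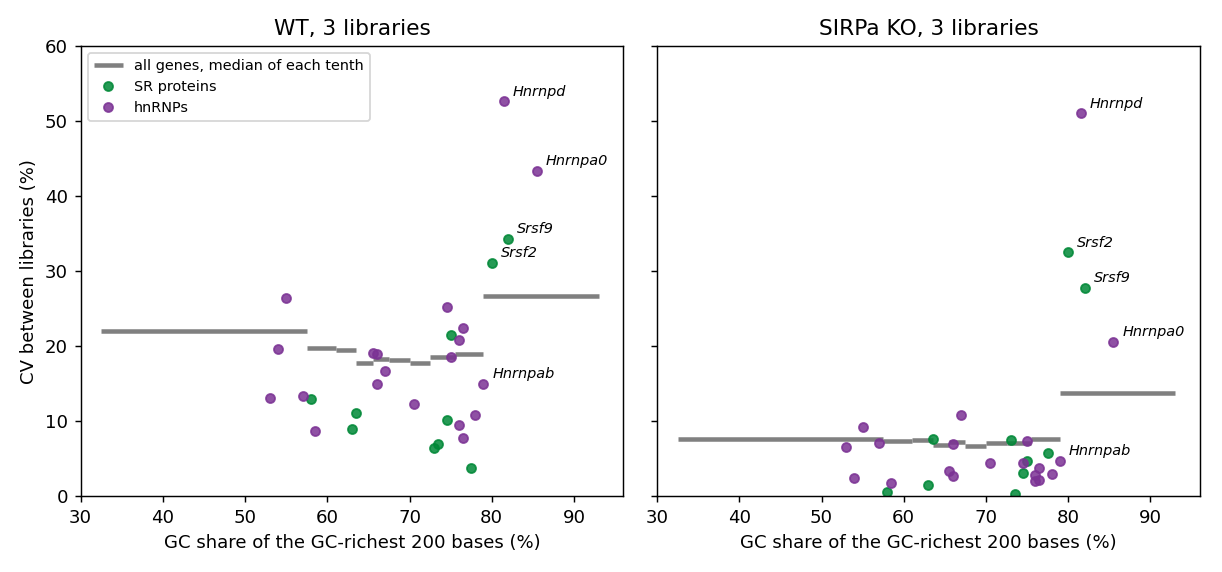
CV between the 3 libraries of a group against the GC share of the GC-richest 200 bases, for SR proteins and hnRNPs as points and for all genes averaging a log2 CPM of 3 or more as the median of each decile of genes (grey bars, drawn over the range of that decile). Hnrnpd, Hnrnpa0, Srsf2 and Srsf9 lie at 31.1% or above in WT and 20.6% or above in SIRPα KO, and the grey bar is highest for the GC-richest decile in both groups.

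High CVs were also more frequent among genes with GC-rich windows across the transcriptome. Of the 9125 genes, 538 had a CV over 25% in SIRPα KO, and 220 of these (40.9%) had a window of at least 79% GC, compared with 978 (10.7%) of all. A CV over 25% in SIRPα KO was found for 3.90% of genes with a poorer window. It was found for 22.5% of those with a window of at least 79%, so most of these did not vary that much. Of the 192 genes with both ratios above, 155 (80.7%) had such a window. In the decile of genes with the richest windows, the median CV was 13.7% in SIRPα KO and 26.7% in WT, while in the other deciles it was 6.65% to 7.64% and 17.8% to 22.1%. The median deviation of that decile from the gene mean, on the log2 scale, was 0.23 in WT replicate 1 and 0.17 in SIRPα KO replicate 3, and between -0.07 and -0.13 in the other libraries. WT replicate 3 was the lowest library of the decile (-0.13), whereas Srsf9, Srsf2 and Hnrnpd were above their means in it. The median log2 fold change of the decile was -0.06, the lowest of the 10 deciles, of which the others ran from -0.02 to 0.15. With windows of 100 bases the GC-richest decile had a median CV of 13.4% in SIRPα KO. The window and its limit of 79% were chosen after the values were seen, and the part of GC content in the spread was not tested.

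Not every GC-rich member varied. Hnrnpab, at the limit, had 499.7, 636 and 670.5 CPM in WT and 708, 655 and 716 CPM in SIRPα KO, with CVs of 15% and 4.74%. When the GC share of the window was removed as a trend together with length and GC content, the CV in SIRPα KO fell from 27.8% to 11.3% for Srsf9 and from 32.5% to 24.6% for Srsf2, and was 38.7% for Hnrnpd and 18.8% for Hnrnpa0. In WT it became 17.8% for Srsf9, 23.0% for Srsf2 and 39.7% for Hnrnpd, but rose from 43.4% to 46.4% for Hnrnpa0, from 19.6% to 38.7% for Hnrnpa3 and from 13.0% to 29.1% for Srsf3. The correction raised the CV of 13 of the 30 genes in WT and of 10 in SIRPα KO. The log2 fold change became -0.09 for Srsf9, -0.16 for Srsf2, -0.77 for Hnrnpa0 (adjusted p = 0.223) and -1.15 for Hnrnpd (adjusted p = 0.0807). Hnrnpf and Srsf5 passed under this correction as well (adjusted p = 0.0302 and 0.0233), 2 of 30 against 9.4% of all genes.

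Some of these values may hold reads of other genes, since no source used here says whether strand was used in counting. The span of Srsf2 overlaps those of Mettl23 and Mfsd11 on the other strand, and the 3194 bases shared with Mettl23 are its whole span. Mettl23 had 928, 772 and 909 reads in WT and 476, 469 and 475 in SIRPα KO, lower in every SIRPα KO library. Hnrnpd overlaps the antisense gene Gm17092, which had 74, 18 and 36 reads in WT and 10, 5 and 24 in SIRPα KO and so the same high and low libraries as Hnrnpd. Hnrnpu overlaps Cox20 (540, 406 and 632 reads in WT, 267, 307 and 270 in SIRPα KO), which was lower in SIRPα KO where Hnrnpu was higher. Hnrnpab shares 4390 bases with Phykpl on the other strand. On the same strand, where counting by strand would not separate them, Hnrnpm shares 1169 bases with March2 and Hnrnpul2 4371 bases with AC129217.1. March2 had 1786, 1252 and 2047 reads in WT and 1191, 1302 and 1120 in SIRPα KO. Some other members overlap further genes. Whether reads of overlapping genes entered the values of any member was not tested. Near-identical copies (an alignment of 200 bases or more at 95% identity or more that covers 50% or more of either the gene or the copy, in most cases the shorter copy) were found for Hnrnpf (7, of which 6 in the table held reads equal to 4.0% of its own), Hnrnpa3 (27, of which 17 held 7.27%), Hnrnpa1 (9, 4.24%), Hnrnpk (2, 4.29%) and Srsf3 (4, of which 3 held 3.07%). Apart from overlapping genes, none was found for Srsf2, Srsf9, Hnrnpd, Hnrnpa0 or Hnrnpu, while Srsf10 had 2 (1.04%). How reads were divided between a gene and its copies is not given in the sources used here.

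Other splicing genes were followed on 3 lists. Of 28 further hnRNP-like RNA-binding proteins 5 passed (17.9%, against 11.7% of all genes), 4 higher and 1 lower, with a median log2 fold change of 0.09. Matr3, a nuclear matrix protein, rose from 155, 168 and 80.1 CPM in WT to 273, 265 and 241 CPM in SIRPα KO (log2 fold change 0.95, adjusted p = 0.0496). Syncrip, close kin of Hnrnpr, rose by 0.73 (adjusted p = 0.0386) and Pspc1, a paraspeckle protein, by 0.53 (adjusted p = 0.0471). Raly, a relative of Hnrnpc, fell from 126, 118 and 139 CPM to 51.3, 60.2 and 69.6 CPM (log2 fold change -1.08, adjusted p = 0.0121). After the correction for length and GC content Raly still passed (-0.68, adjusted p = 0.0199). So did the fifth gene, Ptbp1, which binds pyrimidine tracts and represses exons, at 0.49 before (adjusted p = 0.0463) and 0.49 after (adjusted p = 0.0376). Matr3, Syncrip and Pspc1 did not (0.44, 0.11 and 0.12).

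Of 31 kinases, import factors and partners of SR proteins, 1 passed (3.23%, against the same 11.7%), and the median was 0.13. This was Bclaf1, an arginine-serine-rich partner in mRNA processing, which had 123, 148 and 86.6 CPM in WT and 215, 216 and 198 CPM in SIRPα KO (log2 fold change 0.82, adjusted p = 0.035, and 0.33 with 0.0741 after the correction). After the correction 4 of this list passed, all lower, and 0 higher, where 8.79% of all genes passed, and its median was -0.11. Of 40 core spliceosome proteins 6 passed (15%, again against 11.7%), 3 higher and 3 lower, with a median of -0.13. Those that rose were Snrnp200, the helicase that unwinds U4 from U6 (1.28, adjusted p = 0.0136), and the U2 subunits Sf3b1 (0.84, 0.0439) and Sf3b3 (0.81, 0.0347), with transcripts of 6745, 6195 and 4525 bases. The largest fall was that of the Sm ring protein Snrpg (-0.81, 0.0397), with a transcript of 1055 bases, and Snrpe, of the same ring, and Snrnp25, of the minor spliceosome, were the other two (-0.65 and -0.75, adjusted p = 0.0426 and 0.0166). Snrnp200, Sf3b3 and Snrpg passed after the correction for length and GC content as well (0.95, 0.55 and -0.48), and Sf3b1, Snrpe and Snrnp25 did not (0.35, -0.24 and -0.14, adjusted p = 0.0715, 0.14 and 0.588). Across the 3 lists 13 genes had a window of at least 79% GC, and 1 of them, Pcbp1, had a CV over 25% in SIRPα KO, against 0 of 86 with a poorer window. Pcbp1, a KH-domain relative of Hnrnpk that was singled out after its values were seen, had 526, 232 and 401 CPM in WT and 188, 183 and 302 CPM in SIRPα KO, high in the same 3 libraries as Srsf2 and Hnrnpd.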

How the data were processed

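The authors sequenced bulk RNA from 3 WT and 3 SIRPα KO libraries of cultured lung ILC2s, aligned the reads with STAR to mm10 with GENCODE M21 annotation, and worked in Partek. The submitters' processing notes name STAR 2.7.8 and Partek 10.0, while the paper names other versions of both. The deposited values are expected counts per gene, not normalized: 56.9% to 60.7% of the values per library are whole numbers. Whether strand was used in counting is not given in the sources used here. Of the table's 17831 gene columns, 174 were listed one by one and the other 17657 hold the same unit.

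Counts were rounded. Genes were kept with edgeR's filterByExpr (minimum count 10, minimum total 15), scaled by TMM and tested with edgeR 4.0.16 (quasi-likelihood test, genotype as the only term, all 6 libraries) in R 4.3.3, with Benjamini-Hochberg adjustment over the 13623 genes tested and a threshold of 0.05. All adjusted p-values are from this test unless another tool is named. CPM are TMM-scaled. SDs and CVs are over the 3 libraries of a group. Lengths and sequences are from GENCODE M21, and copies were found with BLAST+ 2.17.0. The length and GC correction is a spline per library, fitted on 8846 genes and used as an offset. The fits were also run on simulated data that had the same spread for every gene and for both groups. Those simulations cannot show how the test behaves where spread differs between groups, as it does here. Alternatives were DESeq2 1.42.0, other scalings and filters, each library left out, libraries of one code summed, and a replicate block. Totals of 13980499 to 19051507 reads per library set the precision, and counting CVs cover counting error only. An exact permutation test of 3 against 3 libraries cannot give a p under 0.1, so none was used.

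The members and gene lists were chosen with earlier results of these data known. Values in every library are given for Srsf2, for members that passed, for the 3 highest and 3 lowest log2 fold changes of each family, and for the 3 highest CVs of each group. On each other list, at most 4 genes that passed were to be named, by size of log2 fold change. Of these, Matr3, Raly and Bclaf1 have library values, and the others have fold changes only. Ptbp1, Snrpe, Snrnp25 and any other gene with library values were chosen after their values were seen. The GC-rich window and the alternatives built on it were added after seeing the data.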

Additional observations from a re-analysis of the deposited data

How the results depend on the processing

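Of the 30 genes, 2 to 5 crossed the threshold under each alternative, and no gene that had passed changed direction, while 5 hnRNPs that had not passed turned negative with the correction for length and GC content. DESeq2 called 3084 genes in all, 3 SR proteins, 10 of the other hnRNP-like proteins, 5 SR partners and 14 core proteins. RLE size factors and a filter of at least 1 CPM in all 6 libraries each gave 3 SR proteins, and the latter 11 core proteins. Upper quartile factors gave 0 SR proteins and 3 other hnRNP-like proteins, medians of -0.10 (SR), 0.14 (hnRNP) and -0.014 (other hnRNP-like), and summed log2 ratios of -0.071 (SR) and 0.17 (hnRNP). No filter on low counts gave 1 hnRNP, 2 other hnRNP-like and 3 core proteins. Summing libraries of one code called 10 genes in all and 0 on every list. The correction for length and GC content gave medians of -0.083 (SR), -0.070 (hnRNP), -0.24 (other hnRNP-like), -0.11 (partners) and -0.011 (core), with 1 hnRNP and 4 partners called. With the GC-richest window added, the medians were -0.066, -0.074, -0.079 and -0.14 for SR, hnRNP, other hnRNP-like and partners, with 1 hnRNP and 3 partners called. Levels per kilobase had a median of 127 CPM with median coding lengths.

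Leaving out 1 library called 16 to 2606 genes in all, with 16, 17 and 17 without SIRPα KO replicates 1, 2 and 3 and 2606 without WT replicate 3. The ranges were 0 to 3 for SR proteins, 0 to 6 for hnRNPs, 0 to 8 for other hnRNP-like proteins, 0 to 6 for partners and 0 to 13 for core proteins, and every list had 0 without any 1 SIRPα KO library. The median of other hnRNP-like proteins ran from 0.065 to 0.16. The median CV ran from 7.82% to 16.7% in WT and from 2.93% to 5.04% in SIRPα KO. Each of these fits lacks 1 library, whichever group it was taken from. Without WT replicates 1, 2 and 3 the counts were 1111, 2309 and 2606 genes, against 1600 with all 6 libraries. The edgeR variation between replicates was 38.1% in WT and 15.2% in SIRPα KO. The cause of the unequal counts was not tested.

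The labels do not say that a replicate number marks a shared batch, and pairing was not tested. Deviations of same-numbered libraries from their group means correlated at -0.15, 0.19 and 0.038. The highest of all correlations was 0.24, between WT replicate 1 and SIRPα KO replicate 3. With the replicate block, Srsf1 passed (adjusted p = 0.0482 in edgeR), Srsf10 and Hnrnpf did not (0.0692 and 0.08), and 3 other hnRNP-like proteins were called. The block with the length and GC correction called 390 genes in all, 0 SR, 0 hnRNP, 0 other hnRNP-like and 1 core protein, with medians of -0.080, -0.062 and -0.20 for SR, hnRNP and other hnRNP-like proteins, -0.10 for partners and -0.0024 for core proteins.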
